A study of Danio rerio with 12 samples.

Results

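A set of 10 genes known from the thymus and T lymphocytes was followed across the transcriptomes of *ercc2/xpd* mutant and sibling zebrafish larvae. They were taken by name (*rag1*, *RAG2*, *dntt*, *lck*, *zap70*, *cd4-1*, *ptprc*, *ikzf1*, *runx3* and *foxn1*) as genes of this organ and lineage, with earlier results of these data known, and each of the 10 symbols matched 1 of the 37541 gene identifiers. Of these, 8 had reads in at least 1 library (31950 of all genes did), and 7 passed the filter on low values, against 23648 of all genes. The larvae of interest were homozygous mutants (ercc2/xpd -/-) of the AB strain, carrying a small CRISPR/Cas9 deletion in the last exons of a gene that encodes a helicase subunit of TFIIH. They were set against siblings labelled ercc2/xpd+/+ & ercc2/xpd+/-, so the siblings mix wild-type and heterozygous animals. Both genotypes were sampled at 5 dpf and at 7 dpf (days post fertilization), with 3 libraries per genotype and age and 12 in all, each made from pooled whole larvae. In such bulk samples fewer cells of a type and less RNA per cell cannot be told apart, and a value averages over every tissue of the larva.

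The thymus is where T lymphocytes mature. Its epithelium, which depends on the transcription factor Foxn1, attracts lymphoid progenitors from the blood and supports their growth. Inside the thymus these progenitors cut and rejoin their antigen receptor genes with the Rag1 and Rag2 recombinase, while Dntt (terminal deoxynucleotidyl transferase) adds nucleotides at the joints. The finished receptor signals through the kinases Lck and Zap70, with Cd4 as a co-receptor and Ptprc (CD45) as the phosphatase that keeps Lck responsive. Ikzf1 (Ikaros) and Runx3 are transcription factors of the lymphoid and T lineages. In zebrafish larvae the thymus is the main site of *rag1* transcription, and olfactory neurons are a further known site.

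The files give FPKM, fragments scaled by gene length and by library, so levels can be set side by side between genes. Each library held between 13403615 and 15084280 reads, and the members were rare among them. Over all 12 libraries *rag1* had 1801 reads, *zap70* 197 and *RAG2* 195. *ercc2* itself was at 3.14, 2.97 and 2.56 FPKM in mutants and 5.23, 3.78 and 3.81 FPKM in siblings at 5 dpf. At 7 dpf it was at 3.57, 2.96 and 3.07 FPKM in mutants and 6.38, 4.26 and 5.06 FPKM in siblings, with no overlap of the genotypes at either age. At single ages limma's adjusted p for *ERCC2* was over 0.05, with 0.201 at 5 dpf and 0.0612 at 7 dpf. Over both ages its log2 change was −0.55 (limma adjusted p = 0.0163, lost with TPM and with the total of reads). A small deletion need not lower the transcript, so this describes the libraries and is no proof of genotype. Fold changes below are on log2(FPKM + 0.5), which understates the change of genes under about 1 FPKM, and a gene is called where limma's p, adjusted by Benjamini and Hochberg over all 23648 genes, is under 0.05. The median of all tested genes was 0.018 at 5 dpf and 0.014 at 7 dpf on this scale. With TPM it moved to 0.184 and 0.198, and with the total of reads as the scaling to 0.118 and 0.160. Where genotypes are said not to overlap, this only describes the 3 libraries of each group. The share of all tested genes without overlap was not counted.

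Both recombinase genes had lower levels in mutants. *rag1* (ENSDARG00000052122, chromosome 25, 9003230 to 9009902, plus strand, GRCz11) was at 0.712, 0.927 and 0.626 FPKM in mutants at 5 dpf, against 2.85, 2.66 and 3.73 FPKM in siblings. At 7 dpf it was at 1.11, 0.559 and 0.243 FPKM in mutants, against 3.51, 3.57 and 2.82 FPKM in siblings. Every mutant library lay below every sibling library at both ages, and on the log scale the mutants at 7 dpf lay farther apart than the libraries of the other groups. The mutant mean was 24.5% of the sibling mean at 5 dpf and 19.3% at 7 dpf. *rag1* fell by 1.51 (log2, SE 0.249, adjusted p = 0.00587) at 5 dpf and by 1.81 (SE 0.249, adjusted p = 0.00121) at 7 dpf, and it was called in all 25 alternatives at each age.

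*RAG2* (ENSDARG00000052121) lies next to *rag1* on the minus strand of chromosome 25, from 9010425 to 9013963, with 522 bases between the pair. It was rarer, at 0.360, 0.234 and 0.178 FPKM in mutants and 0.967, 0.888 and 0.718 FPKM in siblings at 5 dpf. At 7 dpf *RAG2* was at 0.213, 0.0904 and 0.0273 FPKM in mutants (9, 4 and 1 reads) and 0.481, 0.373 and 0.493 FPKM in siblings (17, 13 and 17 reads). The genotypes did not overlap at either age. Over both ages it fell by 0.75 (SE 0.145, adjusted p = 0.00766), a call kept in all 23 alternatives. At 5 dpf alone *RAG2* stood at the threshold (−0.84, adjusted p = 0.0497), with adjusted p between 0.018 and 0.15 over 24 alternatives, of which 7 called it, and only 2 of the 12 fits without 1 library did. With replicate number as a block it missed the threshold (adjusted p = 0.0577, or 0.1 with the block within each age), and at 7 dpf it was not called (−0.65, adjusted p = 0.098). Of 24 alternatives at 7 dpf 3 did call *RAG2*, which were no filter (0.043), library weights (0.0489) and voom on the recovered reads (−2.198, 0.0464). *RAG2* passed the filter on low values through 3 sibling libraries and no mutant library. It shares 622 bases with *iftap* on the opposite strand, whose levels were 0.549 to 1.04 FPKM in mutants and 0.655 to 0.943 FPKM in siblings at 5 dpf, and 0.546 to 0.813 FPKM in mutants and 0.295 to 0.792 FPKM in siblings at 7 dpf. The strand setting of the counting is not given, so reads in the shared stretch cannot be told apart.

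*dntt* (ENSDARG00000104792, chromosome 13, 50778187 to 51021871) is listed at 0 in all 12 libraries. A count of 0 allows up to 3 reads per library, which is 0.122 to 0.160 FPKM (counting error only). Of the 5 annotated neighbours within 100000 bases, 1 had any read. Whether *dntt* transcripts were absent or were not assigned to this identifier was not tested.

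**Figure D1:**
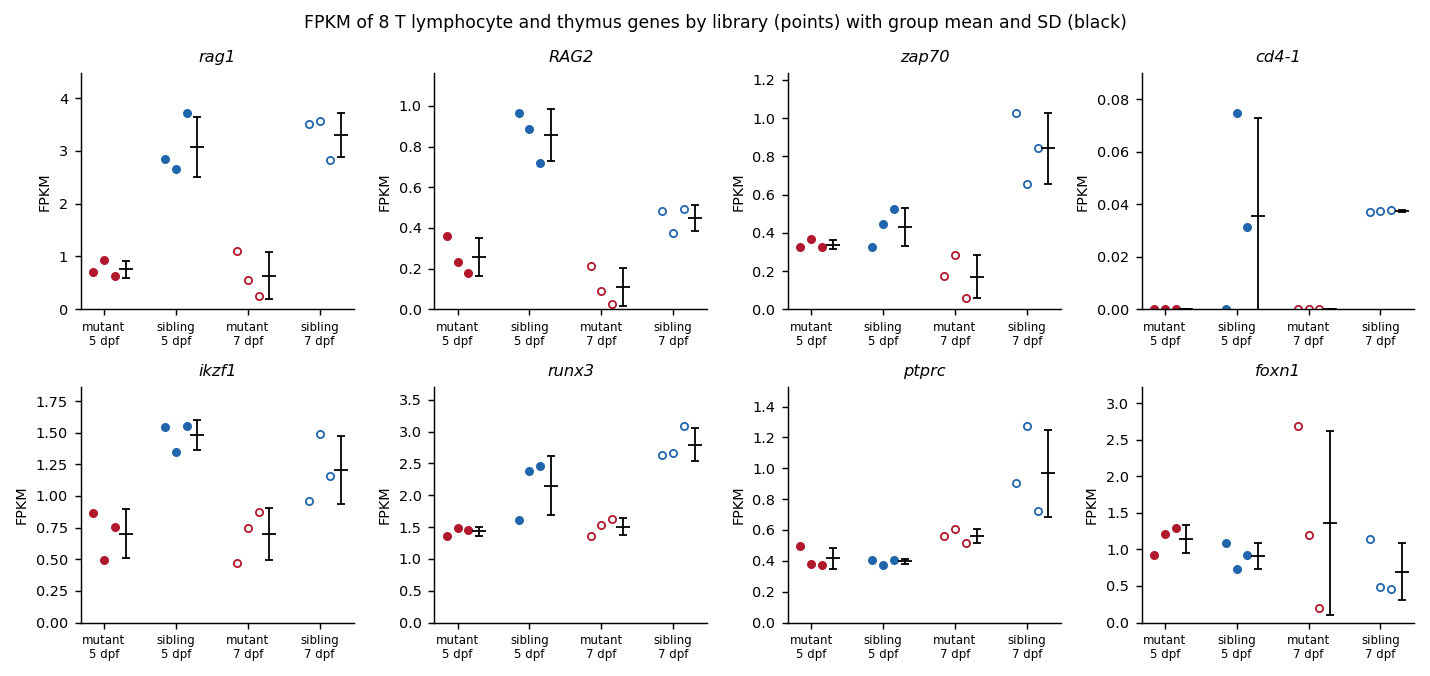
FPKM (vertical axes, each from 0 and on its own scale) of the 8 members with reads, by genotype and age, mutants in red and siblings in blue. Points are libraries, and black marks are the group mean and SD (n = 3 each). *rag1*, *RAG2*, *ikzf1* and *runx3* show every mutant library below every sibling library of its age, *zap70* and *ptprc* do so at 7 dpf only, *cd4-1* is at 0 in all mutants, and *foxn1* overlaps between genotypes. The share of all tested genes that separate in this way was not counted.

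Of the kinases and the co-receptor of receptor signalling only *zap70* had enough reads to test. This kinase (ENSDARG00000015752, chromosome 8, 20393250 to 20414364) was at 0.324, 0.366 and 0.323 FPKM in mutants and 0.327, 0.446 and 0.522 FPKM in siblings at 5 dpf. At 7 dpf *zap70* was at 0.172, 0.282 and 0.0568 FPKM in mutants (7, 12 and 2 reads) and 1.03, 0.656 and 0.843 FPKM in siblings (35, 22 and 28 reads). The genotypes overlapped at 5 dpf and were well apart at 7 dpf, where the mutant mean was 20.2% of the sibling mean. The change at 5 dpf was −0.15 (95% interval −0.60 to 0.30, adjusted p = 0.807). At 7 dpf *zap70* fell by 1.01 (SE 0.207, adjusted p = 0.0144), with adjusted p from 0.006 to 0.069 over 24 alternatives, and it lost the call without sibling replicate 1 (0.0686) or 3 (0.0517) of 7 dpf, with only these groups in the fit (0.0616) and when the pair of libraries with the lowest weights was left out, which were sibling replicate 2 of 5 dpf and mutant replicate 3 of 7 dpf (0.0519). Over both ages the change was −0.58 (adjusted p = 0.0327), made in 10 of 23 alternatives. The call was lost with the replicate block (0.056, or 0.0787 within age), with the total of reads (0.0523) and without any 1 of 9 libraries (up to 0.0815). It passed the filter through 4 sibling libraries and no mutant library.

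*lck* (ENSDARG00000102525, chromosome 17, 25344734 to 25382376), the kinase upstream of Zap70, is listed at 0 in all 12 libraries, which allows at most 0.0844 to 0.110 FPKM (3 reads). It overlaps no other gene, and 10 of its 12 neighbours within 100000 bases had reads. Whether its transcripts were absent or were not assigned to this identifier was not tested. The co-receptor *cd4-1* (ENSDARG00000070668, chromosome 16, 11911897 to 11946139) had no read in any of the 6 mutant libraries and 6 reads in the siblings, at 0, 2 and 1 reads at 5 dpf and 1 read in each library at 7 dpf. All of these are under the floor of 3 reads, so no fold is given. An exact permutation test within age (two-sided, 400 arrangements) gave p = 0.02 for the difference. With several values of 5 dpf tied at 0, this is the smallest p that these values can give (0.005 without ties). Without a filter limma did not call *cd4-1* (adjusted p = 0.579 at 5 dpf, 0.44 at 7 dpf and 0.244 over both ages). At this level the added 0.5 FPKM keeps the change small (−0.10 over both ages), so that fit cannot decide. These 6 reads are too few to settle whether the genotypes differ.

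*ptprc* (ENSDARG00000071437, chromosome 22, 22977268 to 23067859), which all white blood cells carry, was at 0.496, 0.381 and 0.375 FPKM in mutants and 0.409, 0.376 and 0.404 FPKM in siblings at 5 dpf. At 7 dpf *ptprc* was at 0.563, 0.608 and 0.513 FPKM in mutants and 0.903, 1.28 and 0.725 FPKM in siblings. The genotypes overlapped at 5 dpf, and at 7 dpf all 3 mutant libraries were below the lowest sibling library. Neither difference was called, with a change of 0.03 at 5 dpf (95% interval −0.38 to 0.44, adjusted p = 0.964) and −0.45 at 7 dpf (95% interval −0.86 to −0.04, adjusted p = 0.207).

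Of the transcription factors, *ikzf1* (ENSDARG00000013539, chromosome 13, 15957508 to 15994472) was at 0.863, 0.492 and 0.755 FPKM in mutants and 1.55, 1.34 and 1.55 FPKM in siblings at 5 dpf. At 7 dpf *ikzf1* was at 0.473, 0.745 and 0.874 FPKM in mutants and 0.961, 1.49 and 1.16 FPKM in siblings. The genotypes did not overlap at either age, with the closest pair at 7 dpf. Neither age alone was called, with a change of −0.73 (adjusted p = 0.081) in the younger larvae and −0.51 (adjusted p = 0.177) in the older. With library weights *ikzf1* was called at 5 dpf (0.0431). Over both ages *ikzf1* fell by 0.62 (SE 0.14, adjusted p = 0.0185), a call made in 22 of 24 alternatives and lost at 0.0505 without mutant replicate 2 of 5 dpf and at 0.0508 without sibling replicate 2 of 7 dpf.

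*runx3* (ENSDARG00000052826, chromosome 13, 45092766 to 45225980) was at 1.36, 1.49 and 1.45 FPKM in mutants and 1.62, 2.38 and 2.46 FPKM in siblings at 5 dpf. At 7 dpf *runx3* was at 1.37, 1.53 and 1.62 FPKM in mutants and 2.64, 2.66 and 3.09 FPKM in siblings. The genotypes did not overlap, and 1 sibling library of 5 dpf lay close to the mutants. The change was −0.44 at 5 dpf (adjusted p = 0.205). At 7 dpf *runx3* fell by 0.72 (SE 0.158, adjusted p = 0.0215), and over both ages by 0.58 (SE 0.112, adjusted p = 0.00737, and 0.0501 with TPM). The call at 7 dpf was lost in 7 of 25 alternatives (adjusted p from 0.0088 to 0.093), which were TPM, the total of reads and the fits without mutant replicate 1 or 2 or any 1 of the sibling replicates of 7 dpf. In mouse, Runx3 also acts in cartilage and in sensory neurons. The cartilage list (11 of 12 matched identifiers tested) summed to 370.5 to 470.3 FPKM in mutants and 528.1 to 550.1 FPKM in siblings at 5 dpf, and to 275.0 to 373.4 FPKM in mutants and 216.8 to 273.4 FPKM in siblings at 7 dpf. Its *MATN1* (matrilin) fell at 5 dpf (−1.13, adjusted p = 0.0314, lost in 10 of 25 alternatives) and its *acana* (aggrecan) over both ages (−0.81, adjusted p = 0.0274, lost in 10 of 24). Of all genes 2.16% at 5 dpf and 4.63% over both ages were called lower. None of the 8 tested genes of the sensory neuron list was called in these comparisons, and its sum was 7.66 to 10.2 FPKM in mutants and 9.83 to 12.4 FPKM in siblings at 5 dpf, and 11.95 to 12.4 FPKM in mutants and 10.7 to 13.2 FPKM in siblings at 7 dpf. The part of these tissues in the *runx3* and *rag1* values was not tested.

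*foxn1* (ENSDARG00000011879, chromosome 15, 28129683 to 28161224), the gene of the thymic epithelium and also of other epithelia, was the member whose mean was higher in mutants at both ages. It was at 0.929, 1.22 and 1.29 FPKM in mutants and 1.09, 0.730 and 0.926 FPKM in siblings at 5 dpf. At 7 dpf *foxn1* was at 2.69, 1.19 and 0.192 FPKM in mutants (129, 60 and 8 reads) and 1.15, 0.480 and 0.459 FPKM in siblings. The mutants of 7 dpf held both the highest and the lowest value of the series, so the genotypes overlapped. The change was 0.22 at 5 dpf (95% interval −0.713 to 1.152, adjusted p = 0.870) and 0.42 at 7 dpf (95% interval −0.51 to 1.36, adjusted p = 0.638). At 7 dpf *foxn1* was at −0.10 without mutant replicate 1 and at 1.01 without mutant replicate 3, so single libraries set its sign and size.

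**Figure D2:**
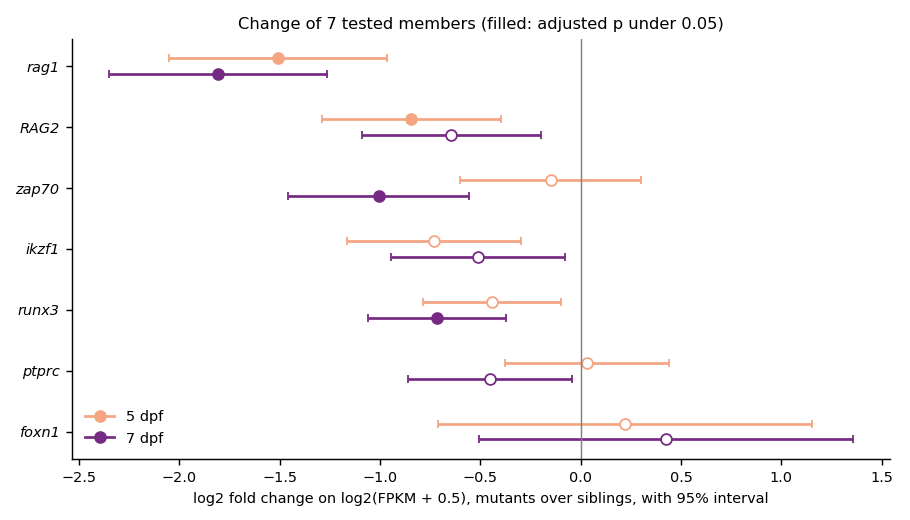
Log2 fold change of the 7 tested members on log2(FPKM + 0.5), mutants over siblings, with 95% intervals from limma, at 5 dpf (orange) and 7 dpf (purple). Filled points have an adjusted p under 0.05: *rag1* and *RAG2* at 5 dpf, and *rag1*, *zap70* and *runx3* at 7 dpf, all left of 0.

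Counted together, 2 of the 7 tested members were lower in mutants at 5 dpf, where 2.82% of all tested genes were called and 2.16% were called lower. At 7 dpf 3 of 7 were lower, against 5.05% of all genes called and 3.25% called lower. Over both ages 5 of 7 were lower (*rag1*, *RAG2*, *runx3*, *ikzf1* and *zap70*), against 7.69% called and 4.63% called lower. With the replicate block *RAG2* at 5 dpf and *zap70* over both ages were lost, which left 1 of 7 and 4 of 7. No member was called higher in any of these comparisons. The median change of the 7 was −0.44 at 5 dpf, −0.65 at 7 dpf and −0.58 over both ages. These counts and medians describe the genes that passed the filter and cannot stand for all 10, since *RAG2* and *zap70* passed it only through siblings. High sibling values thus put both genes in the tested set, so their calls cannot be weighed against the share of all genes. Apart from them, the members called lower were *rag1* at 5 dpf and *rag1* and *runx3* at 7 dpf. Over both ages they were *rag1*, *runx3* and *ikzf1*.

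The change with age was examined next. In siblings 1 member was called between 7 and 5 dpf, where 25.3% of all genes were. This was *ptprc*, which rose by 0.69 (SE 0.188, adjusted p = 0.0177), a call lost without sibling replicate 2 of 7 dpf (0.083), with only the sibling groups in the fit (0.0569) and without the libraries of lowest weight (0.0513). *zap70* was at 0.52 (adjusted p = 0.0853) and *RAG2* at −0.51 (adjusted p = 0.0868) for 7 against 5 dpf in siblings, and *rag1* differed little between the ages there (0.09, 95% interval −0.45 to 0.64, adjusted p = 0.822). In mutants no member was called between the ages, against 11.4% of all genes. The changes there lay between −0.34 (*zap70*, adjusted p = 0.343) and 0.21 (*ptprc*, adjusted p = 0.525), with unadjusted p from 0.132 to 0.965.

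Whether the effect of genotype differed between the ages was tested as an interaction, the effect at 7 dpf minus that at 5 dpf. No member and 0% of all genes were called by limma, although 2455 genes had an unadjusted p under 0.05, and limma's voom on recovered reads also called 0. The largest difference among the members was that of *zap70* (−0.86, SE 0.293, unadjusted p = 0.0126, adjusted p = 0.342), followed by *ptprc* (−0.48, unadjusted p = 0.0941, adjusted p = 0.559). For *rag1* it was −0.30 (95% interval −1.07 to 0.47, adjusted p = 0.811). The calls of *zap70* at 7 dpf and of *RAG2* at 5 dpf therefore do not show that these genes behaved differently at the 2 ages.

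**Figure D3:**
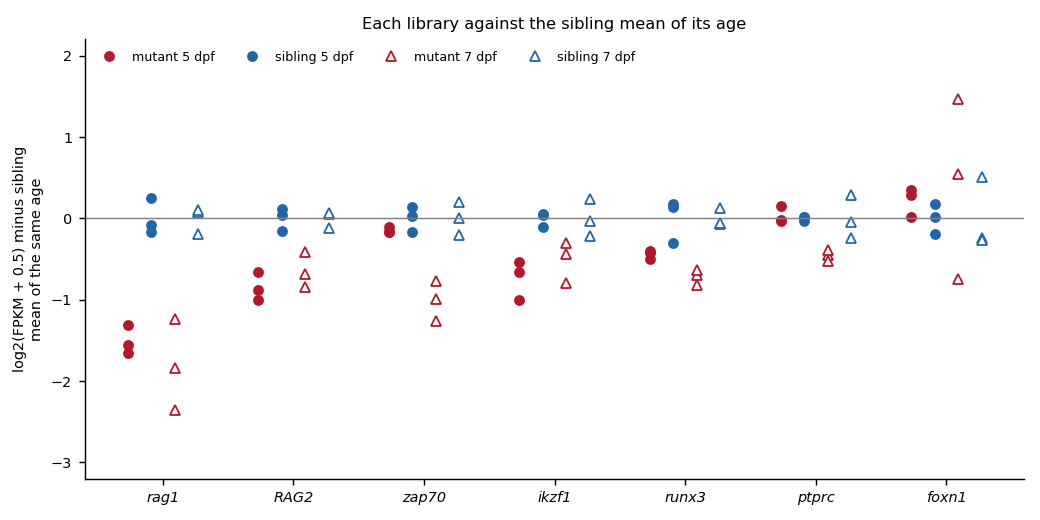
Log2(FPKM + 0.5) of every library minus the sibling mean of its age (vertical axis), for the 7 tested members, mutants in red and siblings in blue, with filled circles at 5 dpf and open triangles at 7 dpf. All 6 mutant libraries are below 0, the sibling mean, for *rag1*, *RAG2*, *zap70*, *ikzf1* and *runx3*, down to −2.35 for *rag1* in a mutant library of 7 dpf. Some sibling libraries lie below 0 too. For *zap70* at 5 dpf sibling replicate 1 (−0.167) lies among the mutants (−0.173 to −0.101). The share of all tested genes with every mutant library below 0 was not counted. The mutants of 7 dpf scatter on both sides of 0 for *foxn1*, up to 1.46.

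Genes that work beside the members in the T lineage were taken from lists. The T cell receptor signalling list of 36 symbols matched 25 identifiers, of which 17 were tested. None was called at 5 dpf, 5 were lower and none higher at 7 dpf, and 5 were lower and 1 higher over both ages, where 3.25% of all genes at 7 dpf and 4.63% over both ages were called lower. The median of this list was −0.32 at 7 dpf. *sla2b*, an adaptor that dampens receptor signals, averaged 0.0738 FPKM in mutants and 0.841 FPKM in siblings at 7 dpf (−1.20, adjusted p = 0.0181, lost without replicate 2 of the mutants or of the siblings of 7 dpf). *cd247l*, related to the zeta chain of the receptor, averaged 0.484 FPKM in mutants and 1.46 FPKM in siblings (−0.99, adjusted p = 0.0233, lost in 9 of 25 alternatives, the replicate block within age among them). Lower at 7 dpf as well were *txk* and *grap2b*, named after their values were seen.

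*THEMIS*, which T cells need during selection in the thymus, was low in the mutants of both ages. It was at 0.0525, 0.154 and 0.0971 FPKM in mutants and 0.264, 0.344 and 0.628 FPKM in siblings at 5 dpf. At 7 dpf *THEMIS* was at 0.129, 0.0741 and 0 FPKM in mutants and 0.309, 0.690 and 0.538 FPKM in siblings. limma called *THEMIS* neither at 5 dpf (adjusted p = 0.282) nor at 7 dpf (0.0737, called in 3 of 24 alternatives). Over both ages *THEMIS* fell by 0.70 (adjusted p = 0.0258, range 0.0081 to 0.071, lost in 8 of 23 alternatives, 1 of them the replicate block within age). *malt1*, named after its values were seen, was the gene of this list called higher. *cd247*, the zeta chain itself, averaged 0.114 FPKM in mutants and 0.390 FPKM in siblings at 5 dpf, and 0.556 FPKM in mutants and 0.282 FPKM in siblings at 7 dpf, and was not called. *cd8a*, the co-receptor of cytotoxic T cells, had at most 0.0578 FPKM in any library.

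Among the lymphocyte cytokine and homing receptors (12 of 17 matched identifiers tested), none was lower and 1 higher at 5 dpf, and 3 were lower and 1 higher at 7 dpf and over both ages (all genes called in either direction: 2.82%, 5.05% and 7.69%). The median was −0.22 at 7 dpf. *il7r*, the receptor for the interleukin that sustains early lymphocytes, was at 0.432, 0.337 and 0.453 FPKM in mutants and 1.64, 1.999 and 1.59 FPKM in siblings at 7 dpf. At 5 dpf *il7r* was at 0.398, 0.544 and 0.626 FPKM in mutants and 0.481, 0.997 and 0.913 FPKM in siblings. The genotypes overlapped at 5 dpf and separated at 7 dpf, where *il7r* fell by 1.302 (SE 0.201, adjusted p = 0.00256), a call made in all 25 alternatives.

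*CCR9* names the receptor that draws progenitors towards Ccl25 from the thymic epithelium, and 2 identifiers carry that symbol. The more abundant *CCR9* (ENSDARG00000055186) was at 2.74, 2.91 and 2.84 FPKM in mutants and 12.2, 14.7 and 11.2 FPKM in siblings at 7 dpf. At 5 dpf *CCR9* was at 3.26, 2.51 and 3.08 FPKM in mutants and 2.24, 2.86 and 5.26 FPKM in siblings, with full overlap. It fell by 1.98 at 7 dpf (SE 0.23, adjusted p = 3.59e-04), and its difference between the ages had an unadjusted p of 9.54e-05 and an adjusted p of 0.173 (0.0183 without sibling replicate 3 of 5 dpf). The rarer *CCR9* (ENSDARG00000099738) failed the filter and ranged from 0 to 0.0959 FPKM in mutants and from 0.237 to 0.610 FPKM in siblings over both ages. Without a filter limma called it at 5 dpf (adjusted p = 0.021), at 7 dpf (0.0016) and over both ages (0.0003). *il2rb*, a receptor chain for interleukins 2 and 15, averaged 0.144 FPKM in mutants and 0.830 FPKM in siblings at 7 dpf (−1.04, adjusted p = 0.0121). The gene called higher was *il4r.1*, an interleukin 4 receptor chain (0.83 over both ages, adjusted p = 0.00214). Its call at 5 dpf (0.0204) was lost in 6 of 25 alternatives, and that at 7 dpf (0.0479) in 16 of 25, both replicate blocks among them. *sla2b*, *THEMIS* and *il2rb* had no mutant library at 0.5 FPKM, so they too passed the filter through siblings.

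**Figure D4:**
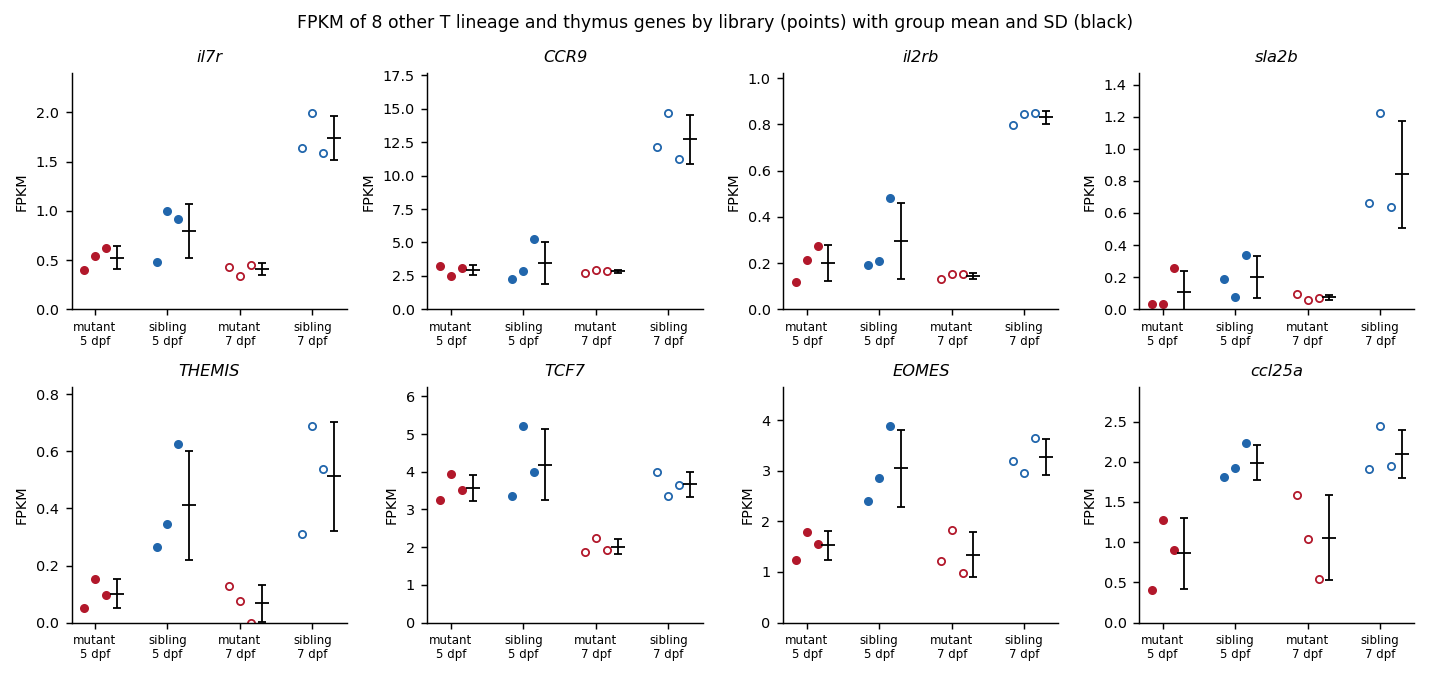
FPKM (vertical axes, each from 0 and on its own scale) of 8 further genes of the T lineage and thymus, by genotype and age, mutants in red and siblings in blue. The panels hold only genes called lower in mutants, at 7 dpf or over both ages. Genes of the same lists that were called higher, such as *ccl25b* and *CXCL12*, or not called, such as *GATA3* and *cd247*, are not shown. Points are libraries, black marks are the group mean and SD (n = 3 each), *CCR9* is ENSDARG00000055186 and *EOMES* is ENSDARG00000006640. *il7r*, *CCR9*, *il2rb*, *sla2b* and *TCF7* separate the genotypes at 7 dpf and overlap at 5 dpf. *THEMIS*, *EOMES* and *ccl25a* show every mutant library below every sibling library of its age. Of these, *THEMIS* and *ccl25a* were called at neither age alone, and *EOMES* at 7 dpf only. The share of all tested genes that separate in this way was not counted.

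Of the T lineage transcription factors (23 of 28 matched identifiers tested), none was called at 5 dpf, 2 were lower at 7 dpf and 3 over both ages, and none was higher, where 3.25% and 4.63% of all genes were called lower. The median was −0.16 at 7 dpf. *EOMES*, a T-box factor of cytotoxic lymphocytes that is also used in the brain, was at 1.22, 1.83 and 0.969 FPKM in mutants and 3.19, 2.95 and 3.65 FPKM in siblings at 7 dpf, and at 1.23, 1.79 and 1.55 FPKM in mutants and 2.39, 2.86 and 3.89 FPKM in siblings at 5 dpf. The genotypes did not overlap, and *EOMES* fell by 0.93 over both ages (adjusted p = 0.00192). These values are those of ENSDARG00000006640. Another identifier of that symbol, ENSDARG00000104243, was not among the called genes. limma called *EOMES* at 7 dpf (adjusted p = 0.0116, lost in 2 of 25 alternatives) and not at 5 dpf (0.0697). *TCF7*, which starts the T cell programme, averaged 2.02 FPKM in mutants and 3.67 FPKM in siblings at 7 dpf (−0.73, adjusted p = 0.0216, range 0.01 to 0.085, lost with TPM, with the total of reads and without replicate 1 or 3 of the mutants or of the siblings of 7 dpf). *SATB1*, a chromatin organiser of thymocytes and of other tissues, fell by 0.79 over both ages (adjusted p = 0.0131). *GATA3* averaged 14.5 FPKM in mutants and 15.8 FPKM in siblings at 7 dpf and *bcl11ba* averaged 1.64 FPKM in mutants and 2.61 FPKM in siblings, and neither was called.

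The thymic epithelium and stroma list (21 of 27 matched identifiers tested) held few calls. None was called at 5 dpf, 1 was higher and 1 lower at 7 dpf, and 2 were higher and 1 lower over both ages, with a median of 0.01 over both ages (all genes called in either direction: 5.05% at 7 dpf and 7.69% over both ages). *ccl25a*, the thymic attractant for Ccr9, was at 0.399, 1.28 and 0.901 FPKM in mutants and 1.81, 1.92 and 2.24 FPKM in siblings at 5 dpf, and at 1.59, 1.05 and 0.540 FPKM in mutants and 1.91, 2.45 and 1.94 FPKM in siblings at 7 dpf. All mutant libraries were below the siblings of their age, but limma called *ccl25a* neither at 5 dpf (adjusted p = 0.117) nor at 7 dpf (0.134). Over both ages *ccl25a* fell by 0.86 (adjusted p = 0.0194, range 0.0088 to 0.063, lost with TPM, without sibling replicate 2 of 7 dpf and without the libraries of lowest weight). *ccl25b*, its relative, averaged 28.0 FPKM in mutants and 16.9 FPKM in siblings at 5 dpf, and 30.8 FPKM in mutants and 24.2 FPKM in siblings at 7 dpf (0.53 over both ages, adjusted p = 0.0246, lost in 4 of 24 alternatives). *CXCL12*, a chemokine of many stromal tissues, was higher over both ages (0.48, adjusted p = 0.00307), and *kitlga* was lower at 7 dpf (−0.54, adjusted p = 0.0185, lost with TPM, with the total of reads and without mutant replicate 2 or any 1 of the sibling replicates of 7 dpf). Of the V(D)J end joining list (12 of 15 matched identifiers tested), 2 were lower and none higher at 5 dpf and over both ages and none was called at 7 dpf. Among all genes 2.16% at 5 dpf and 4.63% over both ages were called lower. The median of the V(D)J list was 0.04 at 5 dpf, 0.24 at 7 dpf and 0.16 over both ages. The 2 lower genes were *hmgb2b* (−0.81 at 5 dpf, adjusted p = 0.00219) and *hmgb1b* (−0.72, adjusted p = 0.00623), DNA-bending proteins of all cells that assist the recombinase, and both lost the call with TPM.

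Other blood cells and dividing cells were measured in the same libraries. Of the pan-leukocyte list (16 of 18 matched identifiers tested) 1 was lower at 5 dpf, 3 at 7 dpf and 3 over both ages and none was higher, where 2.16%, 3.25% and 4.63% of all genes were called lower. The summed level overlapped at 5 dpf, with 67.65 to 76.99 FPKM in mutants and 61.59 to 71.77 FPKM in siblings. It was 65.9 to 69.6 FPKM in mutants and 84.8 to 91.7 FPKM in siblings at 7 dpf. The sums at 7 dpf include *cd74a* (mean 1.87 FPKM in mutants and 8.26 FPKM in siblings) and *cd74b* (2.52 FPKM in mutants and 7.50 FPKM in siblings). The median change of the list was −0.035 at 5 dpf and −0.406 at 7 dpf. *cd74a*, the invariant chain of antigen presentation, was at 1.75, 2.19 and 1.67 FPKM in mutants and 9.18, 8.52 and 7.08 FPKM in siblings at 7 dpf (−1.89, adjusted p = 2.82e-04), *cd74b* fell by 1.40 (adjusted p = 2.45e-04, while its call at 5 dpf, 0.0257, was lost in 11 of 25 alternatives, the replicate block within age among them) and *WAS*, an actin regulator of white blood cells, by 0.90 (adjusted p = 0.0042). *CORO1A* had reads in 1 sibling library only, and whether its transcripts were absent or were not assigned to its identifier was not tested. Of the macrophage list (15 of 23 matched identifiers tested) none was called at 5 dpf. At 7 dpf 2 were higher, *marco* (1.06, adjusted p = 0.0162) and 1 *MFAP4* identifier, ENSDARG00000088745 (0.98, adjusted p = 0.0317, lost in 9 of 25 alternatives). Several identifiers carry the symbol *MFAP4*, and no other one was called. At 7 dpf 1 was lower (*csf1rb*, −0.68, adjusted p = 0.0434, lost in 18 of 25), and 1 gene was higher over both ages. Of all genes 2.82% at 5 dpf, 5.05% at 7 dpf and 7.69% over both ages were called in either direction. The macrophage sum was 95.2 to 138.7 FPKM in mutants and 77.2 to 82.2 FPKM in siblings at 7 dpf. *MPEG1* (ENSDARG00000043093), a macrophage marker, averaged 32.6 FPKM in mutants and 13.8 FPKM in siblings at 7 dpf and was not called (adjusted p = 0.0862, called in 6 of 25 alternatives, the replicate block among them). Another identifier of that symbol, ENSDARG00000055290, averaged 1.516 FPKM in mutants and 1.304 FPKM in siblings at 7 dpf and was not called. A further one, ENSDARG00000078569, was at 0 in all 12 libraries.

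In the neutrophil list (5 of 9 matched identifiers tested) *npsn* alone was called, lower at 7 dpf (−1.58, adjusted p = 0.00386) and over both ages. This list and those below stand beside the shares of all genes called in either direction. These were 2.82% at 5 dpf, 5.05% at 7 dpf and 7.69% over both ages. The median of the neutrophil list was 0.25 at 5 dpf, 0.51 at 7 dpf and 0.38 over both ages, so *npsn* does not stand for it. The neutrophil sum was 32.6 to 78.4 FPKM in mutants and 46.1 to 47.1 FPKM in siblings at 7 dpf. The B lymphocyte list (7 of 11 matched identifiers tested) had 1 gene lower at 7 dpf, *SYK* (−0.80, adjusted p = 0.0304, lost in 10 of 25 alternatives), and the single tested gene of the NK and cytotoxic list (14 matched) was not called. Of the erythroid list (8 of 11 matched identifiers tested) *SLC4A1* (ENSDARG00000012881), the red cell anion exchanger, alone was called, lower at 5 dpf (−1.60, adjusted p = 0.00209), at 7 dpf and over both ages, and the globin gene *hbae3* was not called. Another identifier with the symbol *SLC4A1*, ENSDARG00000024560, was not among the called genes. Of the blood stem and progenitor list (10 of 11 matched identifiers tested) *CEBPA* alone was called, higher at 5 dpf (0.83, adjusted p = 0.0434, lost in 12 of 25 alternatives). Of the cell division list (19 of 20 matched identifiers tested) 6 were lower at 5 dpf, among them *MCM7* (−0.69, adjusted p = 0.00537), *CCNA2* (−0.96, adjusted p = 0.0289, lost in 9 of 25 alternatives) and the 2 identifiers of *RRM2* (lost in 9 and 13 of 25), where 2.16% of all genes were called lower. At 7 dpf *TYMS* alone was called, higher (0.96, adjusted p = 0.0114), and over both ages *TYMS* was higher (0.0448, lost in 15 of 24 alternatives) and *MCM7* lower. *MCM7* lost its call with TPM both at 5 dpf and over both ages. *PCNA* was not called, except at 7 dpf with TPM (0.035) and with the total of reads (0.0392). The cell division sum was 337.9 to 417.45 FPKM in mutants and 471.2 to 553.4 FPKM in siblings at 5 dpf, and 146.3 to 191.6 FPKM in mutants and 134.3 to 162.1 FPKM in siblings at 7 dpf. The part of these cells in the values of *rag1* and the other members was not tested.

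Among 12998 genes with a mean of at least 1 FPKM, the pattern most like that of *rag1* over the 12 libraries was that of *SYCN* (Pearson r = 0.975 on the log scale, as a description). *SYCN* averaged 20.5 FPKM in mutants and 228.5 FPKM in siblings at 5 dpf, and 18.8 FPKM in mutants and 304.1 FPKM in siblings at 7 dpf. *crygm2d1* (r = 0.966), *DPYS* (r = 0.965), *crygm2d14* (r = 0.963) and *TDO2* (r = 0.963) followed. All of these points share genotype as a source of variation. *lck*, at 0 throughout, has no such pattern.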

How the data were processed

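RNA of whole larvae was sequenced in 12 libraries. The deposited files hold 1 FPKM value per gene and library; per the submitters' notes the authors mapped reads to GRCz11 with HISAT2 2.0.5, and a sequencing company normalized the mapped reads and converted them. The counter, strand setting, annotation release and scaling were not given in the sources used here. FPKM times gene length came in whole steps in each library (100% within 0.01 of a read), which gave the reads. Libraries were grouped by genotype and age labels, and p-values measure the spread between pools. Genes that reached 0.5 FPKM in 3 or more libraries were fitted in 1 model of the 4 groups on log2(FPKM + 0.5) with limma 3.58.1 (R 4.3.3, mean-variance trend), a step tested on simulated data. Alternatives were other pseudocounts, filters and scalings, only the compared groups, a replicate block, library weights, voom on the recovered reads, and each library left out in turn. The members, lists and the rule for named genes (for each list and comparison, up to 3 called genes with the largest change, fixed markers, *ercc2*, and the genes most like *rag1* and *lck*) were chosen with earlier results of these data known. Of 257 listed symbols, 23 were unmatched, *mpx* among them. A gene of the receptor signalling list is counted there but not reported here. Deviations of mutant and sibling libraries sharing a replicate number correlated by 0.272, 0.129 and 0.217 in the younger larvae. In the older larvae these correlations were 0.054, 0.087 and −0.023. The main model did not pair libraries, and only the alternatives with a replicate block took the numbers into account.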

Additional observations from a re-analysis of the deposited data

How the results depend on the processing

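*rag1* kept its call in every alternative at 5 dpf, at 7 dpf and over both ages. Over both ages *RAG2* kept its call in 23 of 23 alternatives and *runx3* in 23 of 24, while calls at single ages and those of *zap70* moved with single libraries. Over 128 single-gene results tested in the text, 2732 of 3102 values kept direction and side of the threshold, 332 lost a call, 15 gained one and 23, none called, changed sign. Leaving out a library of the other age cannot alter the fold change at a single age, so part of this agreement was fixed in advance. A further 57 uncalled results of named genes are left out of these counts (1405 values, of which 44 changed sign and 38 gained a call). The text gives few of their tests.

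The count of called genes was 666 at 5 dpf, 1194 at 7 dpf, 1818 over both ages and 2700 for 7 against 5 dpf in mutants. With TPM it was 1847 at 7 dpf and 3528 over both ages, and with the total of reads (added after seeing the data) 1825 and 3054. The scaling also changed the split: 35.7% of calls at 7 dpf were higher in mutants, against 72.8% with TPM and 70.3% with the total of reads (at 5 dpf 23.3%, 44.3% and 38.2%, and over both ages 39.7%, 78.6% and 73.0%). With library weights the count was 2338 at 7 dpf and 4192 for age in mutants. For the difference between ages it was 2 with a pseudocount of 1, 3 without a filter, 1 with the replicate block and 10 with library weights, against 0. Without 1 library at a time it was 314 to 763 at 5 dpf (314, 441 and 404 without mutant replicate 1, mutant replicate 2 and sibling replicate 2 of 5 dpf), and 719 to 1306 at 7 dpf (719 without mutant replicate 2, and 776, 751 and 734 without sibling replicates 1, 2 and 3 of 7 dpf). It was 1171 to 1794 over both ages (1171 without mutant replicate 1 of 5 dpf), 0 to 6 for the difference between ages and 1394 to 3051 for age in mutants (1394 and 1397 without mutant replicates 1 and 2 of 5 dpf). The causes were not tested. limma's voom on the recovered reads called 704 genes at 5 dpf, 1077 at 7 dpf and 1799 over both ages.

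With the replicate block 655 genes were called at 5 dpf and 1209 at 7 dpf, and with the block within each age 581 and 1220. Among the members the block changed the calls of *RAG2* at 5 dpf and *zap70* over both ages and no other. Over both ages the block within each age also ended the calls of *THEMIS*, *il2rb*, *sla2b*, *cd247l* and *hmgb1b*.

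Changes of sign among uncalled values were these. For the difference between ages, *RAG2* was −0.029 with a pseudocount of 0.1 and −0.451 with voom, and without 1 library *foxn1* ranged from −0.314 to 0.787 and *rag1* from −0.587 to −0.028. Without sibling replicate 2 of 5 dpf and mutant replicate 3 of 7 dpf together (added after seeing the data) *rag1* was 0.055 and *foxn1* 0.884 there. For 7 against 5 dpf in siblings *rag1* was −0.025 with the total of reads. For age in mutants *runx3* was −0.002 with the total of reads and *ikzf1* 0.091 with library weights. Without 1 library *ikzf1* was −0.142 to 0.133, *rag1* −0.493 to 0.065 and *foxn1* −0.597 to 0.505 there, and without both libraries named above *rag1* was 0.065 and *foxn1* 0.505. Without 1 library *ptprc* at 5 dpf was −0.029 to 0.064 and *foxn1* at 7 dpf −0.095 to 1.007. Of the other genes, *GATA3* at 7 dpf was 0.084 with TPM and 0.054 with the total of reads. *PCNA* over both ages was 0.164 with TPM, 0.11 with the total of reads and −0.129 to 0.003 without 1 library. *hbae3* at 5 dpf was −0.538 to 0.018 without 1 library, and 0.018 without both libraries named above.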
